A study of Mus musculus with 2 samples.

Results

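Cxcl9, Cxcl10 and Ccl5 encode chemokines that attract T cells, and their transcripts were followed here in mouse melanoma cells recovered from lung and bone. They were taken by symbol, 3 of the 32285 genes in the deposited table. Viable GFP-positive CD45-negative cells of the B16F10 melanoma line were sorted from lung tumours of wild-type (WT) hosts and from lung tumours and crushed knee bones of Prf1-/- hosts. These hosts lack perforin, with which cytotoxic T cells and NK cells perforate target membranes, and the genotype is that of the host, since all groups held the same tumour line. Lung tumours were digested for 20 min and knees for 30 min, both at 37 °C, so site and digestion time cannot be told apart. Cells of each source carried 1 of 3 hashtag antibodies and were pooled for a single droplet run, which gave 1 RNA library and 1 hashtag library. The number and age of the mice are not given in the sources used here.

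Each source is therefore 1 hashtag group without replicates. Cells are not replicates, so nothing was tested, and all intervals are 95% intervals for counting error only. Levels are unique molecular identifiers (UMIs) of a gene scaled to a group total of 1000000 UMIs, written CPM.

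CXCL9 and CXCL10 are CXC chemokines that share the receptor CXCR3, carried by activated T cells and NK cells. CCL5, also called RANTES, is a CC chemokine that binds CCR1 and CCR3. In many cell types Cxcl9 is induced mainly by interferon-gamma, Cxcl10 by type I interferons as well as interferon-gamma, and Ccl5 by NF-kB and interferon regulatory factors.

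Cxcl9 and Cxcl10 are neighbours on chromosome 5 of GRCm38 (mm10), at chr5:92321331-92328079 and chr5:92346638-92348889, both within a chemokine cluster and on the minus strand. Cxcl10 also lies within the span of Art3, an overlapping gene, and reads of the overlap could not be told apart if strand was not used in counting. Ccl5 lies apart, at chr11:83525778-83530518. Cxcl11, the third CXCR3 ligand gene of the cluster, is annotated in that assembly as a transcribed pseudogene and was not analysed here. The 250 bases before the RefSeq start of Cxcl9 (chr5:92328080-92328329, minus strand) and Cxcl10 (chr5:92348890-92349139, minus strand) are shown because these genes were detected together in the same cells. No such window of Ccl5 was available here, so its promoter was not examined. Capitals mark matches, on either strand, to an interferon-stimulated response element core (GAAA, any 2 bases, GAAA) or an NF-kB motif (GGG, any 5 bases, CC).
Cxcl9: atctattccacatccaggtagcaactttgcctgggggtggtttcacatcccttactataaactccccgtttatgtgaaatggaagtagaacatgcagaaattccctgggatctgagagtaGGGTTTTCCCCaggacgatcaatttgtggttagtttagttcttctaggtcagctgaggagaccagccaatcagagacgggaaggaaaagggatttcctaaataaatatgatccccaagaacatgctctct
Cxcl10: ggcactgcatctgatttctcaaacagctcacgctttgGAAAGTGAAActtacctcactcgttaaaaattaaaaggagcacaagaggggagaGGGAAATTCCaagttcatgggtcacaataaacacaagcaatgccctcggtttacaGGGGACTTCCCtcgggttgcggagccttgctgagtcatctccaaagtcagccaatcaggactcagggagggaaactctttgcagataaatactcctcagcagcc

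The response element core was present once in the Cxcl10 window, 213 to 204 bases before the start, and was found in 2.98% of 32851 RefSeq promoters of the same length. The NF-kB letters were present in both windows and in 45.8% of all promoters. In Cxcl10 they began 159 and 104 bases before the start, with a further match offset by a single base from the latter, and in Cxcl9 overlapping matches covered bases 130 to 120. A gamma-activated site (TTC, any 3 bases, GAA), held by 7.02% of promoters, was searched on both strands and had no match in these windows. These are matches of letters and not measured binding.

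The RNA table held 15961 barcodes and shared 4204 of them with the hashtag table, in which the smallest total was 503 counts. Cells with at least 1000 genes and at most 15% mitochondrial UMIs were kept, and a cell was placed in a group when its largest hashtag count was at least 2 times the second. This gave 1227 WT lung, 1520 Prf1-/- lung and 385 Prf1-/- bone cells. Their totals were 3865546, 4726709 and 1299480 UMIs, and the median cell held 2909, 2826.5 and 3107. A further 6270 filtered barcodes were not listed in the hashtag table (median 2418 UMIs) and are described apart. Prf1 had 0 UMIs in every group, under floors of 3 UMIs that equal 0.776, 0.635 and 2.31 CPM, which in tumour cells does not check the host genotypes.

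Melanoma marker transcripts were found throughout the cells. Every filtered cell in the 3 groups had a UMI of 8 melanoma markers such as Pmel, Dct and Mlana, whose summed level was 12994, 13287 and 10125 CPM in the same order. Ptprc, which encodes CD45, and all 10 T and NK cell markers were at 0 in the 3 groups. Of 10 macrophage, monocyte and dendritic cell markers 5 were at 0 (Csf1r, Itgam, Adgre1, Itgax and Flt3), and the list summed to 20.7, 4.65 and 5.39 CPM. Alveolar and airway markers summed to 203, 13.5 and 19.2 CPM, with Epcam at 0. At least 3 melanoma marker UMIs were held by all 51 cells with a Cxcl9 UMI and 3078 of the 3081 without. For Ccl5 it was all 245 with and 2884 of the 2887 without, and for Cxcl10 924 of the 926 with and 2205 of the 2206 without. These markers were thus as frequent in both kinds of cell. Free RNA in the suspension can also supply marker UMIs, so these shares do not show that each chemokine-positive cell was a melanoma cell.

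Cxcl9 (ENSMUSG00000029417) was a rare transcript, and its level was highest in bone. WT lung had 38 UMIs, a level of 9.83 CPM (6.96 to 13.5). Prf1-/- lung had 37 UMIs, or 7.83 CPM (5.51 to 10.8). Prf1-/- bone had 30 UMIs, or 23.1 CPM (15.6 to 33.0). The interval of bone lay above those of both lung groups, while the lung intervals overlapped.

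Cxcl10 (ENSMUSG00000034855) was found in every group at a similar level. WT lung stood at 361 CPM (342 to 380), Prf1-/- lung at 297 CPM (282 to 313) and Prf1-/- bone at 265 CPM (237 to 294). The order was WT lung, Prf1-/- lung, bone, and the Prf1-/- lung and bone intervals overlapped.

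Ccl5 (ENSMUSG00000035042) was lower in bone than in both lung groups. WT lung stood at 165 CPM (152 to 178), Prf1-/- lung at 190 CPM (178 to 203) and Prf1-/- bone at 49.3 CPM (37.9 to 62.9). The intervals of the lung groups met at their ends.

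**Figure D1:**
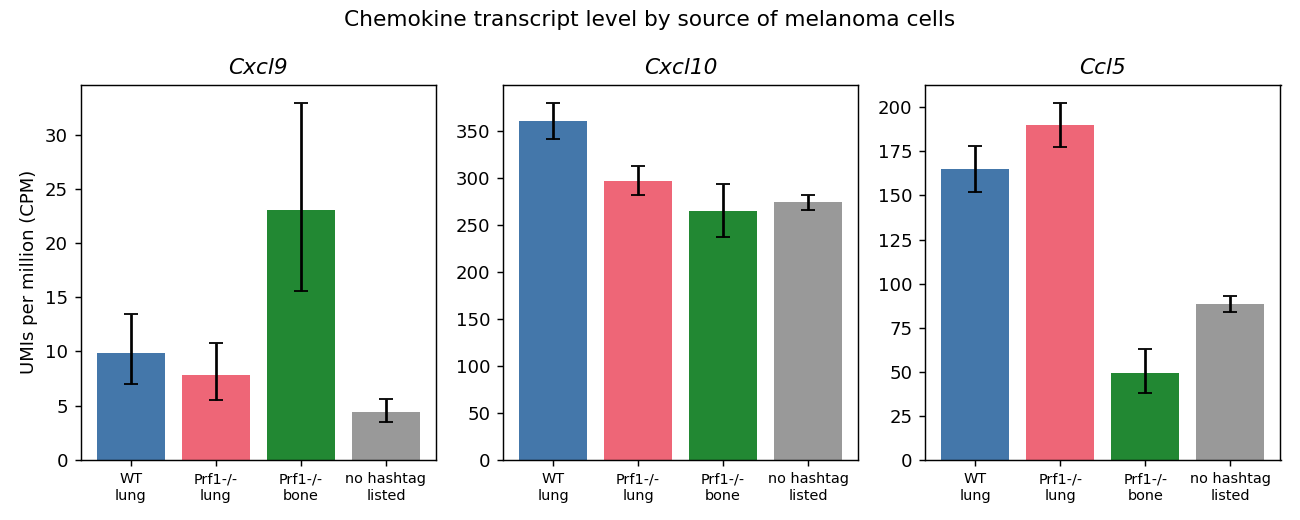
Level of each chemokine transcript in CPM in the 3 hashtag groups and in filtered barcodes with no hashtag listed; bars are summed UMIs over all cells and error bars are exact Poisson 95% intervals for counting error. Cxcl9 was highest in bone at 23.1 CPM, Ccl5 lowest there at 49.3 CPM, and Cxcl10 lay between 265 and 361 CPM in the hashtag groups.

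The comparison of Prf1-/- lung with WT lung bears on whether tumour cells carry different chemokine transcript levels when the host lacks perforin. Over all cells none of the 3 genes differed by 1.5-fold, the size used here for a call. Over all 7748 genes with a mean of at least 10 CPM, a filter that Cxcl10 and Ccl5 passed, 1.82% were past it in either direction, 0.71% on the higher and 1.11% on the lower side. Cxcl10 had a ratio of 0.824 (0.764 to 0.888) and Cxcl9 one of 0.796 (0.492 to 1.29). Without the single cell of 10 or more Cxcl9 UMIs, in Prf1-/- lung, the Cxcl9 ratio was 0.560 (0.327 to 0.947), past 1.5-fold, and without the 5% of cells with the most UMIs it was 0.561 (0.327 to 0.949). Ccl5 had a ratio of 1.15 (1.04 to 1.28), and this direction turned to 0.964 (0.796 to 1.17) without the cells that held 10 or more Ccl5 UMIs. Restricted to 145 Prf1-/- and 126 WT lung cells that had 2000 genes or more, the Ccl5 ratio was 3.82 (2.71 to 5.49), and that of Cxcl9, from 11 UMIs and 1 UMI, was 9.25 (1.35 to 398). In the cells with the most hashtag counts, the highest of 3 equal parts of each group, the Ccl5 ratio was 1.51 (1.29 to 1.76).

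The comparison of Prf1-/- bone with Prf1-/- lung contrasts metastatic sites in hosts without perforin. Cxcl9 was 2.95-fold higher in bone (1.76 to 4.91), in a comparison where 3.81% of 7695 genes were past 1.5-fold on the higher side. Ccl5 was 3.85-fold lower in bone (2.99 to 5.05), where 7.39% of genes were past it on the lower side. Cxcl10 had a ratio of 0.891 (0.789 to 1.00), which was 0.428 (0.306 to 0.587) in cells that had 2000 genes or more. In either direction 11.2% of all genes were past it. Cxcl9 reached the filter of a mean of 10 CPM only through bone, where it was high, so the share over all genes is given beside it and nothing is read from the count of members past 1.5-fold. The Cxcl9 ratio turned to 0.265 (0.00615 to 1.82) in the 47 bone and 145 lung cells that had 2000 genes or more, where bone had 1 UMI, and was 1.32 (0.643 to 2.55) in the part of cells with the most hashtag counts. Ccl5 stayed lower in bone without the cells of 10 or more UMIs, at a ratio of 0.452 (0.298 to 0.662).

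Set against WT lung, where both the genotype of the host and the site differ, bone had ratios of 2.35 (1.41 to 3.89) for Cxcl9, 0.734 (0.650 to 0.826) for Cxcl10 and 0.299 (0.227 to 0.387) for Ccl5. The comparisons share groups, so a chance value in a shared group would move both ratios that use it.

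Few cells held most of the Ccl5 transcripts. In WT lung 101 of 1227 cells had a Ccl5 UMI, and the 20 cells (1.63%, 0.998 to 2.51) with 10 or more held 68.1% of the UMIs. In Prf1-/- lung 133 of 1520 cells were positive, and 29 cells (1.91%, 1.28 to 2.73) held 73.5%, with 68 UMIs in the highest cell. In bone 11 of 385 cells were positive, and the 2 cells (0.519%, 0.0630 to 1.86) with 10 or more held 53.1%. A single bone cell had 22 UMIs, which is 34.4% of the group's total, and without the top cell of each group the bone to lung ratio was 0.185 (0.132 to 0.252). Outside the cells of 10 or more UMIs, Ccl5 stood at 53.3 CPM in WT lung, 51.4 CPM in Prf1-/- lung and 23.2 CPM in bone.

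Cxcl10 had both a broad low component and a tail of high cells. In WT lung 372 cells (30.3%, 27.8 to 33.0) had a UMI, of which 182 had only 1, while 33 cells held 46.3% of the UMIs and the highest had 65. Among Prf1-/- lung cells 429 (28.2%, 26.0 to 30.6) were positive, 220 of them with 1 UMI, and 30 cells with 10 or more held 41.9%. In bone 125 cells (32.5%, 27.8 to 37.4) were positive, and 6 cells with 10 or more held 34.0%, with at most 27 UMIs in a cell. Without the cells of 10 or more UMIs WT lung had 200 CPM, Prf1-/- lung 177 and bone 178. The bone to lung ratio then became 1.00 (0.863 to 1.16).

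Cxcl9 was spread differently in bone and lung. In bone 22 of 385 cells (5.71%, 3.62 to 8.52) had a UMI, and 17 of the 22 had only 1. In WT lung 18 of 1227 cells (1.47%, 0.872 to 2.31) were positive, 7 of them with 3 to 9 UMIs. Prf1-/- lung had 11 of 1520 cells (0.724%, 0.362 to 1.29) positive, and the highest cell, with 11 UMIs, held 29.7% of the transcripts. It took 7 cells to hold 50% of the Cxcl9 UMIs in bone, 5 in WT lung and 2 in Prf1-/- lung.

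**Figure D2:**
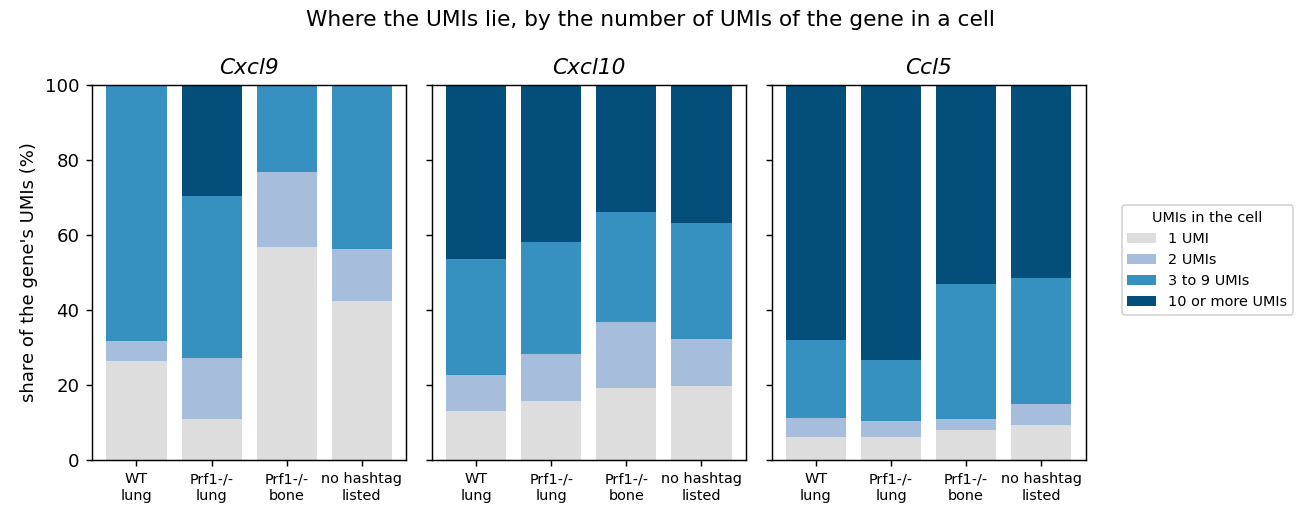
Share of each gene's UMIs, in percent, that lay in cells with 1, 2, 3 to 9, or 10 or more UMIs of that gene, for the 3 hashtag groups and for filtered barcodes with no hashtag listed. Cells with 10 or more UMIs held 68.1% and 73.5% of the Ccl5 transcripts in the lung groups, and cells with a single UMI held 56.7% of the Cxcl9 transcripts in bone.

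Depth differed between cells, so shares were also computed with each cell thinned to 1500 UMIs, which left out 1 Prf1-/- lung cell. The share of Cxcl10-positive cells was then 20.0% (17.8 to 22.3) in WT lung, 18.3% (16.4 to 20.3) in Prf1-/- lung and 19.3% (15.4 to 23.5) in bone. For Ccl5 it was 6.04% (4.76 to 7.51), 6.54% (5.33 to 7.88) and 1.99% (0.901 to 4.05). For Cxcl9 it was 0.963% (0.506 to 1.70), 0.490% (0.185 to 0.947) and 3.31% (1.81 to 5.70). The bone shares stood apart from both lung groups for Ccl5 and Cxcl9, and those of Cxcl10 overlapped throughout.

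Free RNA in the suspension can place a UMI in a cell that does not make the transcript. In 79 alveolar-like barcodes (5 or more alveolar marker UMIs and more of these than of melanoma markers, without the gene filter), a type not known to lack these genes, the median depth was 580 UMIs. Of these, 5.06% (1.40 to 12.5) had Cxcl10 and 6.33% (2.09 to 14.2) had Ccl5. Cxcl9 was in 0 of 79, which allows a share of up to 4.56% by the exact interval. The cell filter was passed by 6 of the 79, of which 3 had Ccl5, 2 had Cxcl10 and 0 had Cxcl9. Melanoma cells thinned to 580 UMIs had shares of 9.92% to 11.2% for Cxcl10, 1.44% to 4.23% for Ccl5 and 0.266% to 1.40% for Cxcl9 across the groups. The share of cells with a Ccl5 UMI was therefore not above that of these barcodes, and that of Cxcl10 lay within its interval. For Cxcl9 the 79 barcodes were too few to decide, since 0 of 79 allows more than the melanoma shares. As this type may make the genes itself, its shares do not measure free RNA alone. All groups shared a single suspension and run, and free RNA adds to levels as it does to shares, so cells with many UMIs carry more of the description. For Cxcl9 in bone there were none of 10 or more, as 17 of the 22 positive cells had 1 UMI and the highest had 4.

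Depth went with the members in different ways. The cells of each group were put in 3 equal parts by depth. In the shallowest part of WT lung, at a median of 2165 UMIs, 17.1% had a Cxcl10 UMI and the level was 287 CPM, against 45.0% and 410 CPM in the deepest part at a median of 4173. Ccl5 ran the other way there, from 267 CPM in the shallowest part to 105 CPM in the deepest. Cxcl9 had no common order: from the shallowest to the deepest part it stood at 33.4, 27.7 and 14.9 CPM in bone, 1.86, 7.63 and 10.9 CPM in Prf1-/- lung and 7.95, 12.6 and 8.92 CPM in WT lung. Bone and Prf1-/- lung were thus further apart in the shallowest part than in the deepest, but these Prf1-/- lung values rest on few cells. In its shallowest part 0.197% of 507 cells had Cxcl9, and its deepest part held the single cell with 11 Cxcl9 UMIs.

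Cxcl9-positive cells held Cxcl10 more often than the other cells did, in every group. In WT lung 16 of the 18 Cxcl9-positive cells also had Cxcl10 (88.9%, 65.3 to 98.6), against 29.4% of cells without Cxcl9. Prf1-/- lung had it in 7 of 11 cells (63.6%, 30.8 to 89.1) against 28.0%. In bone it was 13 of 22 cells (59.1%, 36.4 to 79.3) against 30.9%. Thinned to 1500 UMIs, the shares were 79.6% against 19.4%, 65.0% against 18.05% and 49.3% against 18.2%. The Cxcl10 level was 12.6-fold (10.8 to 14.5) higher in Cxcl9-positive than in Cxcl9-negative cells of WT lung, 10.1-fold (8.31 to 12.3) in Prf1-/- lung and 5.74-fold (4.45 to 7.36) in bone. Barcodes with no hashtag listed had the same pattern, with Cxcl10 in 30 of 44 Cxcl9-positive cells (68.2%, 52.4 to 81.4) against 24.8%.

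Ccl5 and Cxcl10 overlapped in part. Cxcl10 was present in 46 of 101 Ccl5-positive cells in WT lung (45.5%, 35.6 to 55.8), against 29.0% of the others. Prf1-/- lung cells had it in 63 of 133 (47.4%, 38.7 to 56.2), against 26.4%. Bone had 4 of 11 (36.4%, 10.9 to 69.2), against 32.4%, which counting error does not separate. Thinned to 1500 UMIs, the shares were 36.7% against 18.9%, 35.9% against 17.0% and 38.2% against 18.9% in the order WT lung, Prf1-/- lung and bone. The thinned bone share rests on the same 11 cells and is not separated either. Both bone cells with 10 or more Ccl5 UMIs had Cxcl10, and such cells weigh most after thinning.

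The overlap was larger among cells with many UMIs. Of the 51 hashtag-group cells with 10 or more Ccl5 UMIs, 32 had Cxcl10 (62.7%, 48.1 to 75.9), and 15 had 10 or more of both. Among 69 cells with 10 or more Cxcl10 UMIs, 26 had Ccl5 (37.7%, 26.3 to 50.2) and 15 had Cxcl9 (21.7%, 12.7 to 33.3). High cells of either gene without a UMI of the other were thus common.

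Few cells held both Cxcl9 and Ccl5, as both were scarce. In WT lung 3 of 18 Cxcl9-positive cells had Ccl5 (16.7%, 3.58 to 41.4), against 8.11% of the others, and the Ccl5 level was 7.46-fold (5.68 to 9.66) higher in them. Prf1-/- lung had 3 of 11 (27.3%, 6.02 to 61.0), against 8.61%, and a level 2.04-fold (1.16 to 3.34) higher. Counting error does not separate these shares. Each of the 2 level ratios rests on the Ccl5 UMIs of 3 cells, and its interval holds no spread between cells. In WT lung 2 of these 3 cells had 10 or more Ccl5 UMIs. In bone none of 22 Cxcl9-positive cells had Ccl5, which allows a share of up to 15.4% by the exact interval, against 3.03% of the others. All 3 transcripts were present in 3 WT lung cells, 2 Prf1-/- lung cells and 0 bone cells, while 35.0%, 33.0% and 36.6% of the cells had at least 1 of them. Across cells, Pearson's r of the log levels ranged from 0.135 to 0.269 for Cxcl9 with Cxcl10, from 0.145 to 0.188 for Cxcl10 with Ccl5 and from -0.037 to 0.055 for Cxcl9 with Ccl5 in the 3 groups and the unlisted barcodes. These weak values in sparse counts share library and depth and are a description only.

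**Figure D3:**
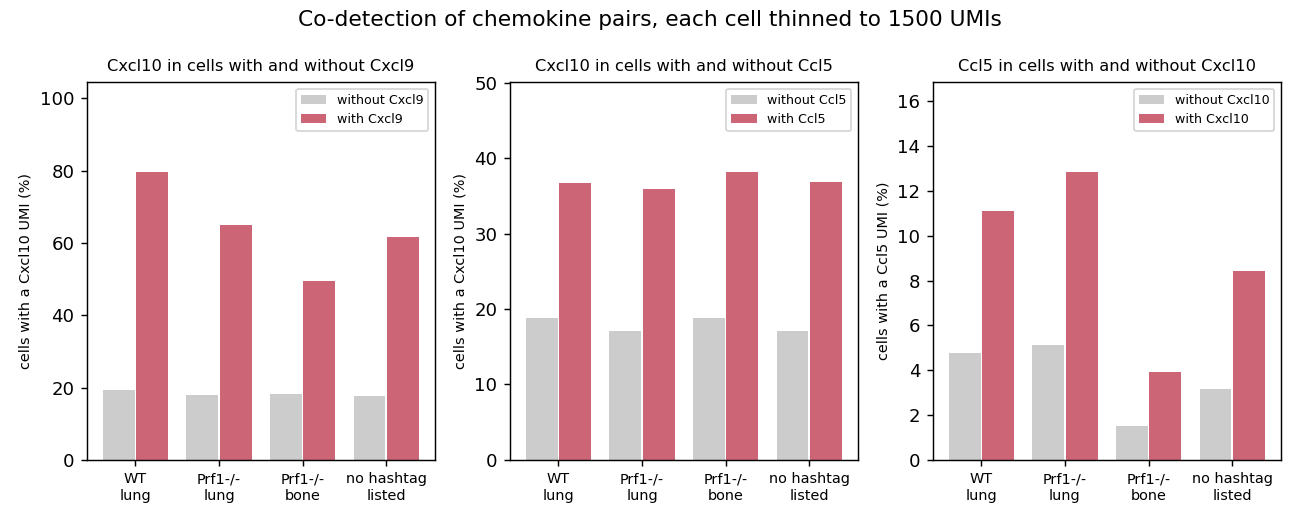
Percent of cells with a UMI of a chemokine gene among cells with (red) and without (grey) a UMI of another, each cell thinned to 1500 UMIs, in the 3 hashtag groups and in filtered barcodes with no hashtag listed. Cxcl10 was present in 49.3% to 79.6% of Cxcl9-positive cells of the hashtag groups against 18.05% to 19.4% of Cxcl9-negative cells. Among Ccl5-positive cells it was 36.7% against 18.9% in WT lung and 35.9% against 17.0% in Prf1-/- lung. Bone had 38.2% against 18.9%, but from only 11 Ccl5-positive cells, of which 4 had Cxcl10 unthinned.

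The genes most like each member, by Pearson's r of log levels over all 9644 filtered barcodes and among 6018 genes with a UMI in at least 5% of them, were interferon-induced genes. For Cxcl9 they were Iigp1 (r = 0.195), Gbp2 (0.190), Psmb8 (0.164), Tap1 (0.135), Psmb9 (0.133) and Zbp1 (0.132). Iigp1 and Gbp2 encode interferon-inducible GTPases, and Psmb8, Psmb9 and Tap1 encode immunoproteasome subunits and a peptide transporter. For Cxcl10 they were the antiviral effector genes Ifit1 (r = 0.338), Ifit3 (0.333) and Rsad2 (0.299), then Iigp1 (0.284), Ifit3b (0.261) and the ubiquitin-like modifier gene Isg15 (0.240). For Ccl5 they were Ifit1 (r = 0.255), Rsad2 (0.216), Ifit3 (0.199), Ifit3b (0.184), Isg15 (0.183) and Ifit2 (0.165). The lists of Ccl5 and Cxcl10 shared 5 of their 6 genes, those of Cxcl9 and Cxcl10 shared Iigp1, and those of Cxcl9 and Ccl5 shared 0. Ifit3 and Ifit3b are close copies whose reads could be split between them. Cxcl9-positive cells had 539 CPM of Iigp1 against 53.5 in the remaining cells, and Ccl5-positive cells had 365 CPM of Ifit1 against 46.2.

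Genes of type I interferon, interferon-gamma and NF-kB signalling were compared between cells with 10 or more Cxcl10 UMIs and cells with none. The lists also hold feedback inhibitors and targets of these pathways, and the direction of any effect was not tested. The 3 hashtag groups (69 and 2206 cells) and the unlisted barcodes (101 and 4697 cells) were taken apart. Of 9 measured type I interferon genes, those with at least 20 CPM over the cells, 5 were past 1.5-fold on the higher side in the hashtag groups, where 9.59% of all genes were, and 6 in the unlisted barcodes, where 8.75% were. On the lower side was 1 in each set, where 14.6% and 11.7% of all genes were. In cells without Cxcl10, Ifih1 and Irf1 stood under 20 CPM, as did Irf7 and the NF-kB gene Nfkb2 in the unlisted set. These genes reached the filter only through Cxcl10-positive cells, so the counts here and below describe the lists and support nothing. Usp18, a feedback inhibitor of the type I receptor, was 5.85-fold (4.44 to 7.62) and 7.49-fold (5.92 to 9.39) higher. The RNA sensor gene Ifih1 was 5.79-fold (3.71 to 8.77) and 8.22-fold (5.73 to 11.5) higher, and the transcription factor gene Irf7 5.66-fold (3.84 to 8.15) and 7.20-fold (5.01 to 10.1). Socs3, a feedback inhibitor of cytokine receptors, was lower, with ratios of 0.244 (0.0500 to 0.718) and 0.410 (0.132 to 0.962), from 3 and 5 UMIs in the high cells.

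Of 5 measured interferon-gamma pathway genes, 3 were past 1.5-fold on the higher side in both sets of barcodes, and Jak1 was on the lower side in the unlisted set (0.661, 0.384 to 1.06), beside the same shares of all genes. Irf1, a transcription factor gene of that response, had ratios of 11.1 (7.93 to 15.4) and 11.2 (8.00 to 15.4). Of 5 measured NF-kB genes, not all the same in both sets, 3 were past it in each. Rela and Nfkbia were past it in both, and Tnfrsf1a only in the hashtag groups (1.99 against 1.12). Nfkb2 (2.15) reached the filter only in the unlisted set, and there only through Cxcl10-positive cells, with 19.7 CPM in cells without Cxcl10. These differences between the sets were not tested. Rela had ratios of 1.51 (0.642 to 3.07) and 1.67 (0.853 to 2.96), and both intervals held 1. The inhibitor gene Nfkbia, itself an NF-kB target, stood at 4.74 (3.19 to 6.85) and 3.74 (2.44 to 5.50).

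Cells with 10 or more Ccl5 UMIs (51 in the hashtag groups, 46 unlisted) were compared with cells without Ccl5 in the same way. Ifih1 was 5.05-fold (2.94 to 8.19) and 9.03-fold (5.64 to 13.8) higher, and Irf7 4.06-fold (2.41 to 6.47) and 4.14-fold (2.12 to 7.33). Irf1 had ratios of 4.11 (2.40 to 6.63) and 2.09 (0.763 to 4.60), and the second interval held 1. Of the 9 type I genes 5 were past 1.5-fold on the higher side in each set, where 10.8% and 12% of all genes were, and 1 on the lower side, where 19.3% and 19.4% were.

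**Figure D4:**
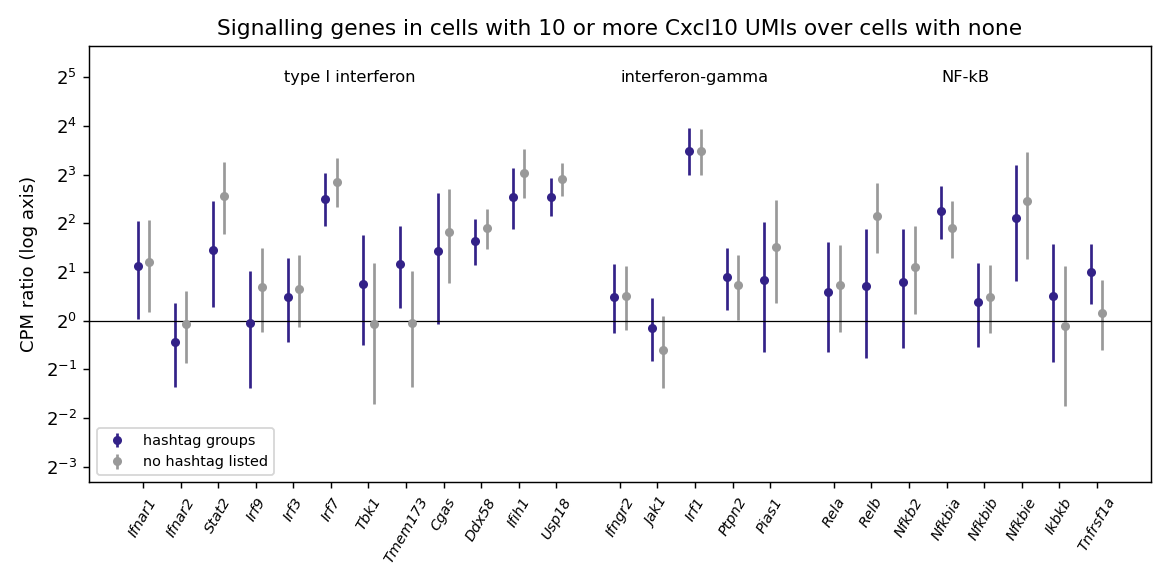
Ratio of CPM (log axis) in cells with 10 or more Cxcl10 UMIs over cells with none for signalling genes that each had at least 5 UMIs in the high cells of both sets, which leaves out genes scarce in high cells; error bars are exact conditional binomial 95% intervals for counting error. Irf1 had the largest ratio shown, 11.1 in the hashtag groups (dark) and 11.2 in barcodes with no hashtag listed (grey).

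The same lists were compared between groups. In Prf1-/- lung over WT lung, 0 of 13 measured type I interferon genes, 0 of 8 interferon-gamma genes and 0 of 12 NF-kB genes were past 1.5-fold, beside 1.82% of all genes, a share at which lists of this size would mostly hold none. They had median log2 ratios of -0.24, -0.14 and -0.04 beside 0.00 over all genes. Usp18 stood at 47.6 against 70.6 CPM, Irf7 at 26.7 against 39.1 and Irf1 at 25.2 against 36.0. The receptor genes Ifngr1 and Ifnar2 stood at 14.6 against 11.1 and 63.7 against 75.0 CPM, the kinase gene Jak1 at 89.9 against 94.9 and the RNA sensor gene Ddx58 at 56.7 against 73.2. Of the NF-kB genes, Nfkbiz stood at 14.6 against 20.2 CPM, Nfkb2 at 16.3 against 19.4, Chuk at 14.4 against 17.1, Nfkbib at 42.5 against 42.9 and the TNF receptor gene Tnfrsf1a at 57.3 against 52.8.

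In bone over Prf1-/- lung, 2 of 12 NF-kB genes and 2 of 13 type I genes were past 1.5-fold on the lower side, where 7.39% of all genes were, and none on the higher side, where 3.81% were, with medians of -0.38 and -0.07 beside -0.03 over all genes. The NF-kB genes were Nfkbia, 21.5 in bone and 33.4 CPM in lung, a ratio of 0.645 (0.415 to 0.968), and the kinase gene Chuk, 7.70 in bone and 14.4 CPM in lung, a ratio of 0.535 (0.246 to 1.04). Chuk reached the filter only through lung, and its interval held 1. The type I genes were Socs3, at 0.457 (0.301 to 0.669), and Irf9, a transcription factor gene of that response, at 0.602 (0.365 to 0.949). Of 7 measured interferon-gamma genes none was past it and the median was 0.01, with Jak1 at 114 against 89.9 CPM, Ifngr2 at 43.1 against 57.3 and Ifngr1 at 10.8 against 14.6. Tbk1, a kinase gene of nucleic acid sensing, stood at 25.4 against 18.6 CPM, Ifnar2 at 48.5 against 63.7 and Ddx58 at 48.5 against 56.7. Relb, Nfkbib and Tnfrsf1a stood at 11.5 against 16.7, 40.8 against 42.5 and 49.3 against 57.3 CPM.

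Hardly any other chemokine gene was detected. Of 34 further ligand genes in the file, 27 had no UMI in either lung group, among them Ccl2, Ccl3, Cxcl2, Cxcl12 and Cxcl16, and only Ccl25 and Ccl27a reached a mean of 10 CPM. Ccl25, a ligand of CCR9, stood at 14.0, 18.4 and 6.16 CPM in the order WT lung, Prf1-/- lung and bone, a bone to Prf1-/- lung ratio of 0.334 (0.140 to 0.689). Ccl27a, which has near-identical copies in the mouse genome and is uncertain for that reason, stood at 23.0, 21.2 and 13.1 CPM, a ratio of 0.618 (0.347 to 1.04). Both ratios were past 1.5-fold on the lower side, where 7.39% of all genes were, but Ccl25 reached the filter only through lung and the interval of Ccl27a held 1. Receptors were scarce too. Cxcr3 had 13, 17 and 4 UMIs. Sdc4, a heparan sulfate proteoglycan gene of the class that binds chemokines, stood at 64.9, 71.9 and 69.3 CPM.

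The levels went with the number of hashtag counts on the cell. In WT lung, Cxcl9 stood at 2.48, 6.32 and 19.4 CPM in the lowest, middle and highest of 3 equal parts of cells by their own hashtag. Of the 37 Cxcl9 UMIs of Prf1-/- lung, 36 lay in the highest part, at 21.3 CPM. In bone the parts stood at 22.2, 18.5 and 28.2 CPM. For Cxcl10 the parts of WT lung stood at 242, 336 and 487 CPM, those of Prf1-/- lung at 240, 245 and 395 and those of bone at 166, 291 and 327. Ccl5 stood at 102, 170 and 284 CPM in Prf1-/- lung, but the middle part was highest in WT lung (77.6, 222 and 189 CPM) and in bone (2.47, 113 and 30.4 CPM). The MHC class I gene H2-K1 moved the same way, from 248 to 627 CPM between the lowest and highest part of WT lung, 179 to 507 in Prf1-/- lung and 368 to 661 in bone. The part of hashtag counts in the group differences was not tested.

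Barcodes with no hashtag listed had 4.44 CPM of Cxcl9 (3.48 to 5.58), 274 of Cxcl10 (266 to 282) and 88.3 of Ccl5 (83.9 to 93.0). The 3 hashtag groups together had 2.39-fold (1.76 to 3.27), 1.16-fold (1.11 to 1.21) and 1.83-fold (1.70 to 1.96) more. Without cells of 10 or more UMIs the Ccl5 ratio was 1.12 (0.997 to 1.26). Their source is not known, so this is a difference between listed and unlisted barcodes and not between conditions.

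**Figure D5:**
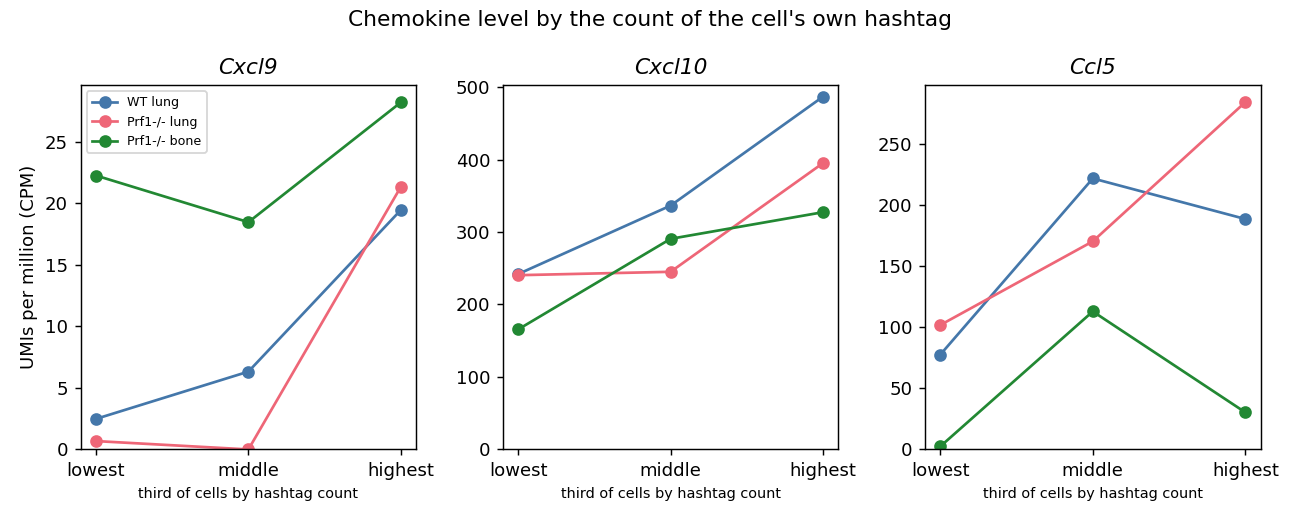
Level of each chemokine transcript in CPM in 3 equal parts of cells ordered by the count of their own hashtag, for each hashtag group. Cxcl9 in the highest part stood at 19.4, 21.3 and 28.2 CPM in WT lung, Prf1-/- lung and bone, and in the lowest part at 2.48, 0.679 and 22.2 CPM.

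Cells that held any UMI of another cell type's markers numbered 95 of 1227 in WT lung, 118 of 1520 in Prf1-/- lung and 43 of 385 in bone. They held 13 of the 38 Cxcl9 UMIs in WT lung, 0 of 37 in Prf1-/- lung and 3 of 30 in bone. Of the 18 Cxcl9-positive WT lung cells, 5 were among them. Without these cells Cxcl9 stood at 7.04, 8.53 and 23.4 CPM. Cxcl10 then stood at 339, 288 and 280 CPM and Ccl5 at 166, 200 and 55.6 CPM. The order of bone against both lung groups was kept for Cxcl9 and Ccl5, while the Cxcl9 order of the lung groups turned.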

How the data were processed

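The values are UMI counts per gene and barcode and hashtag counts per barcode, as the authors deposited them in 2 matrices. The file headers name Cell Ranger 6.0.0, while version 6.1.2 stands in the submitters' processing notes, beside Seurat 4.3.0 and the mm10 build. Libraries were 10x 3' v3, with a minimum of 50000 RNA reads and 5000 hashtag reads a cell, per the labels. Such 3' UMI counts do not scale with gene length, and levels were not compared between genes.

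Hashtag groups, cell filters and thinning are given with the results. Thinned shares are the exact hypergeometric expectation, with an interval from the rounded number of cells. Barcodes with 2 close hashtags (242 after filtering) were left out of groups, and doublets within a hashtag are not seen this way and no caller was run. Levels have exact Poisson, shares exact Clopper-Pearson and ratios exact conditional binomial intervals at 95%. PCR and capture error, cells and animals add spread that these do not hold. Counts of 0 have a floor of 3 UMIs per group.

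The 3 genes and the 5 gene lists were chosen with earlier results of these data known. The contrasts of high against zero cells and the split by hashtag counts were chosen after values of these data were seen, as were H2-K1 and Socs3 in them. Genes named from lists were, per comparison, up to 3 with the largest ratio and 2 with the most UMIs among genes averaging 10 CPM or more, and in the text of high cells the choice was made after seeing values. For likeness 6 genes per member were named. The ratio step was tested on simulated counts with 200 genes changed. Promoters and positions come from RefSeq GRCm38.p6, the build of the files, and match Cxcl9 and Cxcl10. HTODemux came from Seurat 5.3.0 in R 4.3.3 and TMM factors from edgeR 4.0.16. Other steps used Python 3.11.15 with numpy 2.4.6, scipy 1.17.1 and pandas 2.3.3. Some genes of the lists are counted in them but not reported here by name.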

Additional observations from a re-analysis of the deposited data

Results flagged for a closer look

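The 242 filtered barcodes whose largest hashtag count was under 2 times the second were used in no comparison and held the transcripts above the floor of 3 UMIs, which equals 3.08 CPM for them. Cxcl9 stood at 4.10 CPM, Cxcl10 at 290 CPM and Ccl5 at 160 CPM, at a median of 3695.5 UMIs per barcode.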

How the results depend on the processing

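No paired analysis was possible because each source is 1 hashtag group without replicates, and there was none to leave out. Each log2 ratio was recomputed under 13 alternatives, of which 2 (the highest of 3 equal parts by hashtag counts and leaving out cells of 10 or more UMIs) were chosen after seeing the data. The causes of the shifts were not tested.

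For bone over Prf1-/- lung, the log2 ratio of Ccl5 stayed below 0 in all 13, from -4.41 to -1.15. It was -1.95 as reported, -4.41 with at least 2000 genes, -2.44 without the top cells, -1.15 without cells of 10 or more UMIs and -3.23 in the highest hashtag part. That of Cxcl9 (1.56) kept its sign in 12 of 13 and turned to -1.92 with at least 2000 genes, and was 0.40 in the highest hashtag part. That of Cxcl10 (-0.17) was -1.22 with at least 2000 genes and 0.0055 without cells of 10 or more UMIs.

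For Prf1-/- lung over WT lung, Cxcl10 (-0.28) moved to -0.14 with HTODemux calls and -0.020 with at least 2000 genes. Cxcl9 (-0.33) kept its sign in 10 of 13, moved to 3.21 with at least 2000 genes and was -0.84 without cells of 10 or more UMIs, past 1.5-fold. Ccl5 (0.20) moved to -0.042 with a hashtag ratio of at least 5, 1.93 with at least 2000 genes, -0.053 without cells of 10 or more UMIs and 0.59 in the highest hashtag part. The filter of at least 2000 genes left 126, 145 and 47 cells.

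Unthinned shares of positive cells were 30.3%, 28.2% and 32.5% for Cxcl10, 8.23% and 8.75% for Ccl5 in the lung groups, and 5.71% for Cxcl9 in bone. Thinned to 2500 UMIs, those of Cxcl10 were 30.4%, 27.2% and 27.3%. The share of Ccl5-positive cells with Cxcl10 was 36.3% thinned to 1500 UMIs and 46.1% unthinned. Genes past 1.5-fold numbered 141 and 862 with the filter on low genes and 4258 and 5593 without it. TMM factors were 1.01, 0.999 and 0.994.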
